A study of Homo sapiens with 6 samples.

Results

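The genes of the contractile actin filament were followed across the RNA-seq libraries of H2087-LCC cells. They were chosen by symbol, 10 of the 21293 genes in the table: the cytoplasmic actins ACTB and ACTG1, the smooth muscle actins ACTA2 and ACTG2, the smooth muscle proteins TAGLN and CNN1, and the tropomyosins TPM1, TPM2, TPM3 and TPM4. H2087-LCC is a latency competent cancer cell population that was selected in mice from H2087, a RAS-mutant human lung adenocarcinoma (LUAD) line of stage I origin, and all libraries came from this 1 population in culture. For 3 days the cells received SB505124 (SB), which blocks the type I receptor of TGFβ, or they received TGFβ, for 3 or for 7 days, with 2 libraries in each of the 3 groups. There was no 7-day library with SB, so TGFβ and time in culture cannot be told apart in the comparison of 7 days with SB. The study describes the 2 libraries of a group as technical replicates, and the p-values then measure the spread between libraries and not that between cultures.

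Actin filaments carry tropomyosin, a coiled-coil dimer that lies along the groove of the filament and sets which myosins and other proteins can bind it. In smooth muscle cells and in contractile fibroblasts, α-smooth muscle actin (ACTA2), transgelin (TAGLN, also called SM22α) and calponin 1 (CNN1) are added to this basic filament, and TGFβ is a well known inducer of all of them in fibroblasts. Many of these genes are transcribed by serum response factor (SRF), which binds a short element named the CArG box, together with the myocardin-related cofactors MRTFA and MRTFB, which monomeric actin holds back.

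The CArG boxes near the start sites are shown first, because this element is the sequence that several of the genes share. Promoter windows of 250 bases before to 50 bases after the start were taken from RefSeq (GRCh38.p14) for 8 of the 10 genes, 13 windows in all, and each matched GRCh37 once. The RefSeq table was without an entry for ACTB and TAGLN. A CArG box was searched on both strands as 10 bases, 2 C, then 6 bases that are A or T, then 2 G. An exact box was found in 1.29% of the 35116 promoter windows of all genes, and a box with at most 1 mismatch in 18.9%. Capitals mark the box in the 4 stretches below, each given 5′ to 3′ on the strand of its gene, and distances are counted from the start site. A match describes the letters only.
ACTG1, exact box at -94, GRCh37 chr17:79479900-79479929, minus strand: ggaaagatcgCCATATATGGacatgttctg
ACTG2, exact box at -110, GRCh37 chr2:74119990-74120069, plus strand: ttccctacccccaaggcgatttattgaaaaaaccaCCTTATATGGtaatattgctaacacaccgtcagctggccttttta
TPM4, exact box at -173, GRCh37 chr19:16178140-16178219, plus strand: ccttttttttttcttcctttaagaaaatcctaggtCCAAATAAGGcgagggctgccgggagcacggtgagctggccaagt
ACTA2, box with 1 mismatch at -121, GRCh37 chr10:90712607-90712686, minus strand: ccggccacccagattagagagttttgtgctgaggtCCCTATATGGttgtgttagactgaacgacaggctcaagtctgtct

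ACTG2 had another exact box at -73, a box with 1 mismatch at -239 and a TATA box (TATAAA, either strand) at -31. ACTA2 had another box with 1 mismatch at -71 and an MCAT core (CATTCC, either strand) at -183, all in the second of its 2 windows. TPM4 had a box with 1 mismatch in each of its other 2 windows, at -195 and -213. No box, with or without a mismatch, was found in the windows of TPM1, TPM2, TPM3 and CNN1. The palindromic SMAD element GTCTAGAC, searched on both strands, was in none of the 13 windows and in 0.202% of all windows, while the MCAT core was in 14.0% and the TATA box in 11.5% of them.

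Values are normalized counts, that is, read counts divided by a library factor, and they summed to between 34306283 and 36340734 per library. In the 4 libraries where the size of 1 read could be resolved among the low values, it was worth 0.896 to 1.10 normalized counts, which gives an estimated 32000000 to 40000000 reads. As for the identity of the cells, the epithelial markers EPCAM, CDH1, KRT7, KRT8, KRT18 and KRT19 summed to between 88277 and 112407 in a library, although CDH1, E-cadherin, was at 371 and 635 with SB, 28 and 24 after 3 days and 10 and 9 after 7 days. Of these 6 epithelial markers, 1 (KRT7) was higher and 3 (EPCAM, CDH1 and KRT18) were lower than with SB at each time. Of all genes tested, 14.9% were higher and 14% lower at 3 days, and 27.7% and 26.9% at 7 days. The smooth muscle markers MYH11, DES and LMOD1 summed to 51 to 92, the fibroblast markers PDGFRA, PDGFRB, COL1A1, DCN, LUM and THY1 to 233 to 950, and the endothelial markers PECAM1, CDH5, KDR and TEK to 153 to 293. Among leukocyte markers PTPRC was at 0 to 4 and CD3E at 0 to 1, while CD68 was at 4368 to 5113. Each comparison was tested with limma on log2(normalized count + 1) for the 14395 genes whose mean reached 10, and adjusted p-values below 0.05 by the Benjamini-Hochberg method are called changed. In RNA from a whole culture, fewer cells that express a gene and less RNA per cell cannot be told apart.

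H2087-LCC cells expressed the nonmuscle filament and very little of the smooth muscle one. The 10 genes together made up 0.721% to 0.994% of all normalized counts in a library, and ACTB alone 0.379% to 0.565%. By contrast, the counts of ACTA2, ACTG2, TAGLN and CNN1 added up to only 123 to 172 per library. On a scale of normalized counts per kb of canonical transcript, which allows genes to be compared, ACTB and ACTG1 together were 3067 to 4611 times as abundant as ACTA2.

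On this per-kb scale ACTB was the most abundant gene of the set in every library, with levels from 71993 to 111844. ACTG1 came next with 28634 to 38109, followed by TPM4 with 9672 to 17110, and none of these ranges overlapped. TPM1, at 1712 to 6596, and TPM3, at 3486 to 4964, overlapped, and TPM2 lay below both at 667 to 1072. ACTA2, at 24.5 to 41.5, and TAGLN, at 16.6 to 31.4, overlapped as well. CNN1 was at 1.33 to 13.3 and ACTG2 at 0 to 1.33, the lowest of the 10. The canonical transcripts of TAGLN and TPM3 are long, 3786 and 7064 bases, so their levels per kb would be higher with a shorter isoform.

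**Figure D1:**
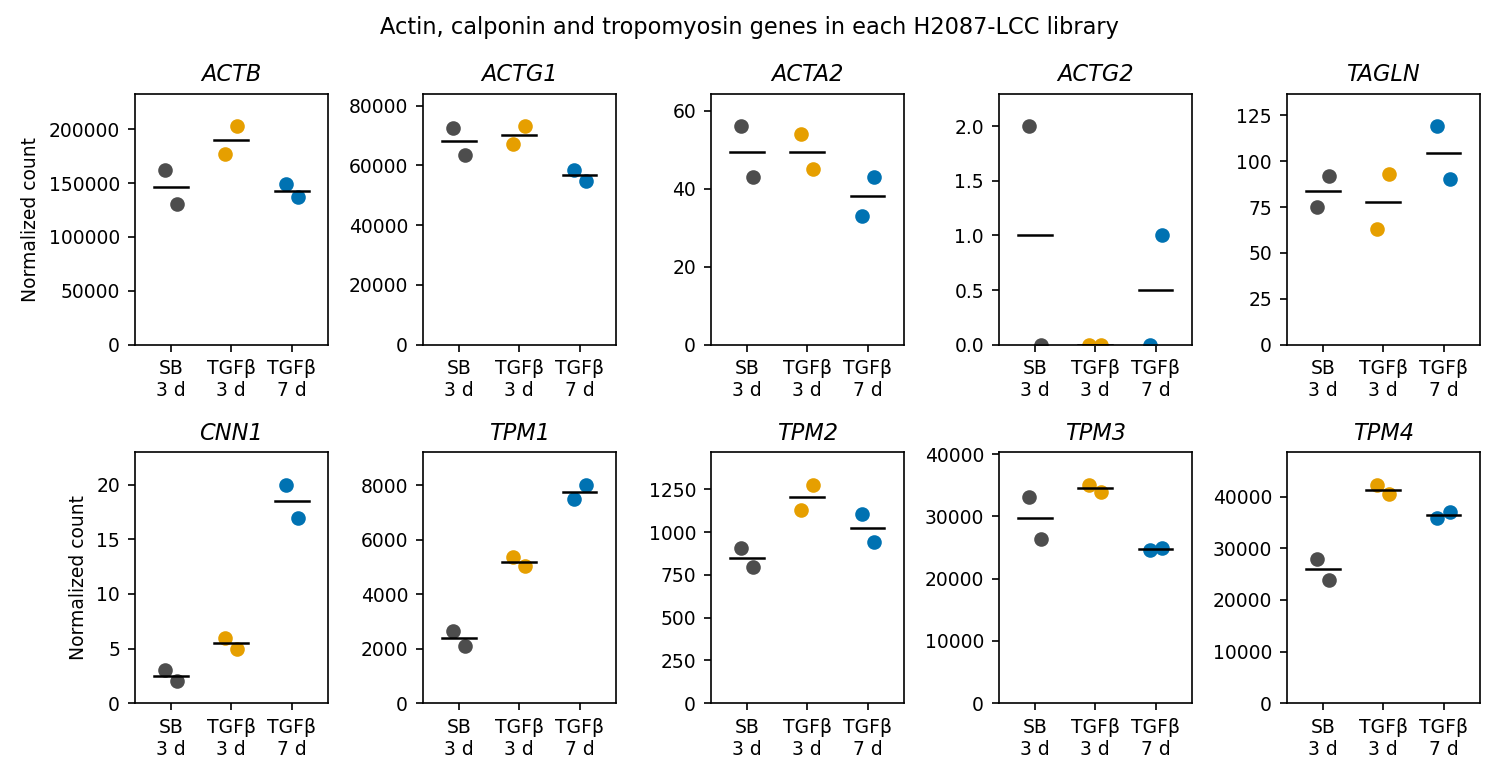
Normalized counts of the 10 genes in each library. Each panel is 1 gene with its own linear axis from 0, each point is 1 of the 2 libraries of SB at 3 days, TGFβ at 3 days or TGFβ at 7 days, and the bar is the mean of the group. TPM1 and CNN1 step up from SB to 3 days to 7 days without overlap, ACTB, TPM2, TPM3 and TPM4 are highest at 3 days, and ACTA2 and TAGLN overlap between SB and both TGFβ groups.

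The tropomyosins and ACTB accounted for the genes that rose after 3 days of TGFβ. TPM1, TPM4, TPM2 and ACTB passed the test, 4 of the 8 genes that reached the minimum mean, and 0 of the 8 were lower (limma, with 0 also at an unadjusted p below 0.05). Over all 14395 genes tested, 14.9% were called higher and 14% lower in this comparison. The median log2 fold change of the 8 genes was 0.30, or 0.54 without the first SB library, against -0.02 over all genes tested. ACTG1, ACTA2, TAGLN and TPM3 did not pass, and CNN1 and ACTG2 were below the minimum mean.

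After 7 days against SB, the numbers of genes called in each direction were near the shares over all genes. TPM1 and TPM4 were higher and ACTG1 and TPM3 lower, 2 of 8 in each direction, against backgrounds of 27.7% higher and 26.9% lower. From 3 to 7 days 1 gene was higher, TPM1, and 3 were lower, ACTB, ACTG1 and TPM3, against 17% higher and 16.2% lower of all genes. The median log2 fold change of the 8 genes was 0.12 for 7 days against SB and -0.27 for 7 days against 3 days, where all genes tested gave -0.00081 and 0.02. Leaving out the first 7-day library gave a median of 0.01 at 7 days against SB, and leaving out the second gave 0.21. Both TGFβ groups were compared with the same SB libraries, so the comparisons are not independent of each other.

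**Figure D2:**
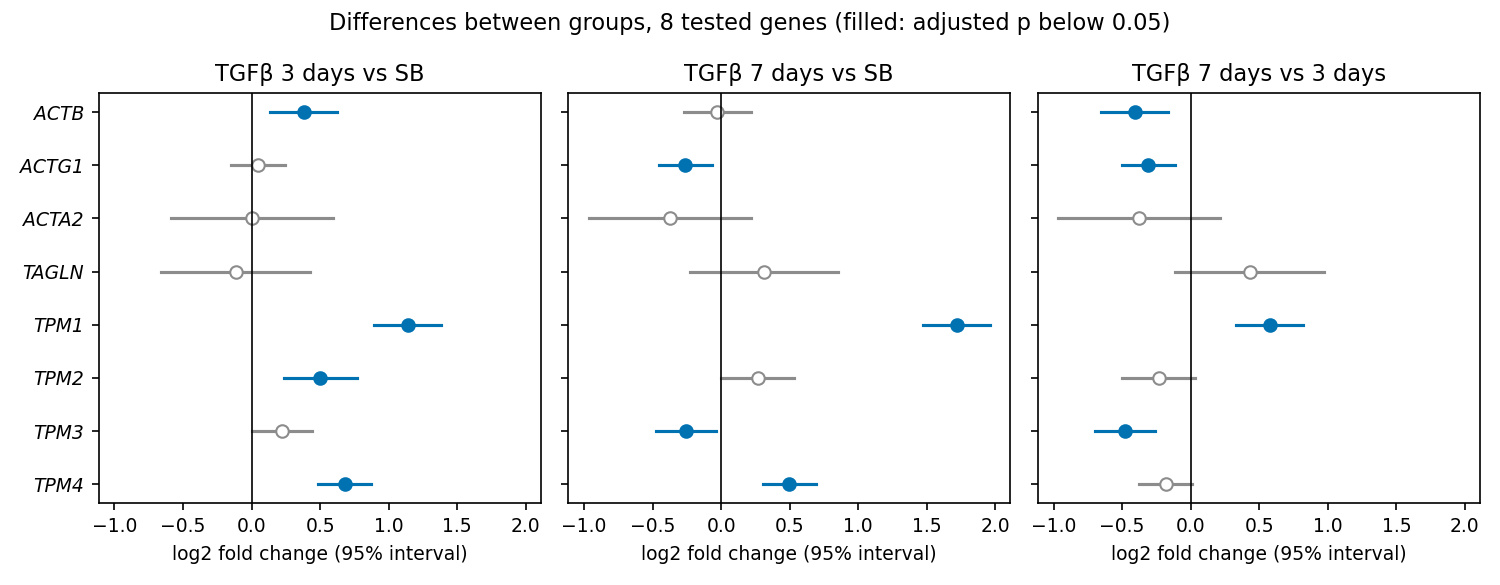
Log2 fold changes of the 8 tested genes in the 3 comparisons, from limma on log2(normalized count + 1). Points are estimates, lines are 95% confidence intervals, filled points have an adjusted p below 0.05, and the vertical line marks no difference. TPM1 is filled and to the right in all 3 panels, whereas the intervals of ACTA2 and TAGLN include 0 in all 3.

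The most widely used markers of a contractile response, ACTA2 and TAGLN, did not pass the test in any comparison. ACTA2 (GRCh37 chr10:90694831-90751096, minus strand) had normalized counts of 56 and 43 with SB, 54 and 45 after 3 days and 33 and 43 after 7 days of TGFβ. The 3-day libraries lay within the range of SB and had the same mean of 49.5, and the 7-day libraries were at or below the lowest SB value. The log2 fold change was 0.01 (95% interval -0.58 to 0.60, adjusted p = 0.989) at 3 days, -0.37 (-0.96 to 0.22, adjusted p = 0.263) at 7 days and -0.38 (-0.97 to 0.21, adjusted p = 0.306) between the 2 time points. The gene lies across the antisense genes STAMBPL1, ACTA2-AS1 and FAS, and as the library kit does not mark strand, reads of overlapping stretches cannot be told apart.

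TAGLN (chr11:117070086-117078180, plus strand) crosslinks actin filaments. It was at 75 and 92 with SB, 63 and 93 after 3 days and 119 and 90 after 7 days. One 7-day library was the highest of all and the other lay within the range of SB, so the groups overlapped in every comparison. The log2 fold change was -0.12 (-0.66 to 0.43, adjusted p = 0.765) at 3 days, 0.31 (-0.23 to 0.86, adjusted p = 0.304) at 7 days and 0.43 (-0.11 to 0.97, adjusted p = 0.205) from 3 to 7 days. Of the windows of 50 bases along its canonical transcript, 65.5% also occur in 1 other annotated gene that overlaps it on the same strand, and it also overlaps the antisense gene PCSK7.

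ACTG2 (chr2:74119441-74146992, plus strand), the γ-actin of enteric smooth muscle, was essentially not detected. Its normalized counts were 2 and 0 with SB, 0 and 0 after 3 days and 0 and 1 after 7 days. A count of 0 allows up to 3 counts in a library, so neither a fold nor a test is given.

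CNN1 (chr19:11649582-11661138, plus strand), which binds actin and slows its myosin in smooth muscle, was also at a very low level, but its groups were separated. Its normalized counts were 3 and 2 with SB, 6 and 5 after 3 days and 20 and 17 after 7 days. The 3 groups did not overlap, and the 7-day libraries were the highest. Summed over the 2 libraries, 7 days held 7.40 times the count of SB (37 against 5, 95% counting interval 2.90 to 24.1) and 3.36 times that of 3 days (1.68 to 7.31), while the ratio of 3 days to SB was 2.20 (0.705 to 8.08). These intervals cover counting error only.

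CNN1 was left out of the test by its mean of 8.83, below the minimum of 10. In a fit with no minimum, its log2 fold change was 2.49 (adjusted p = 0.00325) at 7 days against SB, 1.58 (adjusted p = 0.0314) at 7 days against 3 days and 0.90 (adjusted p = 0.115) at 3 days against SB, values that depend on the pseudocount of 1. At 7 days its level per kb, 13.3 and 11.3, was still below that of ACTA2, 24.5 and 31.9, in the same libraries.

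The cytoplasmic actins moved within narrow bounds. ACTB (chr7:5566040-5603533, minus strand), β-actin, had normalized counts of 162375 and 130452 with SB, 177096 and 202662 after 3 days and 149258 and 136597 after 7 days. Both 3-day libraries were above all others, while the 7-day libraries lay inside the range of SB. ACTB rose at 3 days, with means of 189879 ± 18078 against 146414 ± 22573 (SD, n = 2) and a log2 fold change of 0.38 ± 0.11 (SE, adjusted p = 0.0246).

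At 7 days ACTB did not differ detectably from SB, with a log2 fold change of -0.03 (-0.27 to 0.22, adjusted p = 0.848), and it fell from 3 to 7 days, by 0.41 on the log2 scale (SE 0.11, adjusted p = 0.0165). The call at 3 days was lost without the second library of any of the groups (adjusted p up to 0.163), and the call from 3 to 7 days without the second 3-day library or either 7-day library (up to 0.158). Of the windows of 50 bases along ACTB, 12.1% also occur in other genes, 23 in all, among them ACTBP2 and POTEE, and only uniquely mapped reads were counted.

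ACTG1 (chr17:79476439-79490873, minus strand), γ-actin, had normalized counts of 72392 and 63668 with SB, 67300 and 73132 after 3 days and 58398 and 54948 after 7 days. The 7-day libraries were below all 4 others, which overlapped. The log2 fold change at 3 days was 0.05 (-0.15 to 0.24, adjusted p = 0.732). ACTG1 fell at 7 days, by 0.26 against SB (SE 0.09, adjusted p = 0.0268) and by 0.31 against 3 days (SE 0.09, adjusted p = 0.0207), and the mean was 0.833 times that of SB. Each of these calls was lost when either 7-day library was left out, and also without the first SB library or the second 3-day library, respectively (adjusted p up to 0.209 and 0.189).

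As a share of both cytoplasmic actins per kb, ACTB made up 69.4% ± 1.36 (SD, n = 2) with SB, 74.1% ± 0.702 after 3 days and 72.7% ± 0.389 after 7 days. The 2 TGFβ groups were above SB in every library, by a few percentage points. With 2 libraries against 2, an exact permutation test cannot go below p = 0.333, so the shares are given without a test.

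TPM1 had the largest fold change of the 8 tested genes in each comparison. TPM1 (chr15:63334819-63364114, plus strand), α-tropomyosin, is the tropomyosin whose long isoforms are found in muscle and in stress fibers. Its normalized counts were 2670 and 2084 with SB, 5379 and 5029 after 3 days and 7497 and 8027 after 7 days. The groups were fully separated, in the order SB, 3 days, 7 days.

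The mean of TPM1 was 2377 ± 414 with SB, 5204 ± 247 after 3 days and 7762 ± 375 after 7 days (SD, n = 2). TPM1 rose 2.19-fold at 3 days (log2 fold change 1.14 ± 0.11, adjusted p = 1.29e-05) and 3.27-fold at 7 days (1.72 ± 0.11, adjusted p = 1.73e-07), and it rose a further 1.49-fold from 3 to 7 days (0.58 ± 0.11, adjusted p = 0.00272). These 3 calls held without any 1 of the 6 libraries, with adjusted p-values of at most 0.0342. The counts are per gene and do not say which TPM1 isoforms were present.

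TPM4 (chr19:16177831-16213812, plus strand) encodes a short tropomyosin of nonmuscle cells. It had normalized counts of 27928 and 23929 with SB, 42329 and 40474 after 3 days and 35865 and 37109 after 7 days. All TGFβ libraries were above both SB libraries, and the 3-day libraries were the highest. TPM4 rose 1.60-fold at 3 days (log2 fold change 0.68 ± 0.09, adjusted p = 0.000125) and 1.41-fold at 7 days (0.50 ± 0.09, adjusted p = 0.000546), calls that held without any 1 library. From 3 to 7 days the log2 fold change was -0.18 (-0.38 to 0.01, adjusted p = 0.134). Of its windows of 50 bases, 23.5% also occur in the pseudogenes TPM4P2 and TPM4P3.

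TPM2 (chr9:35681989-35690053, minus strand), β-tropomyosin, is another tropomyosin of muscle. It was at 904 and 794 with SB, 1129 and 1276 after 3 days and 1103 and 944 after 7 days. Every TGFβ library was above both SB libraries, but the 7-day library with the lower value was close to the higher SB library. TPM2 rose 1.42-fold at 3 days (log2 fold change 0.50 ± 0.12, adjusted p = 0.00891). The difference was 0.27 (0.0022 to 0.53, adjusted p = 0.0814) at 7 days against SB and -0.23 (-0.50 to 0.03, adjusted p = 0.161) from 3 to 7 days. The call at 3 days was lost without the second SB library or the second 3-day library (adjusted p up to 0.0732).

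TPM3 (chr1:154127784-154167124, minus strand) is another widely expressed tropomyosin gene, and its counts do not say which isoforms were present. Like TPM2 and TPM4, it was highest at 3 days, but its 7-day libraries lay below both SB libraries. Its normalized counts were 33064 and 26393 with SB, 35064 and 33910 after 3 days and 24625 and 24832 after 7 days. The 7-day libraries were the lowest of the 6 and close to each other, the 3-day libraries the highest, and the SB libraries were far apart. TPM3 fell from 3 to 7 days, by 0.48 on the log2 scale (SE 0.10, adjusted p = 0.00398).

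Against SB, TPM3 gave 0.22 (0.0041 to 0.44, adjusted p = 0.118) at 3 days. At 7 days it fell by 0.26 (SE 0.10, adjusted p = 0.0472), a call that was lost in 5 of the 6 fits that leave out 1 library, all but that without the second SB library (adjusted p up to 0.322). The fall of TPM3 from 3 to 7 days was called without any 1 library (adjusted p at most 0.0372). Without the first SB library TPM3 would have been called higher at 3 days.

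The composition of the tropomyosins therefore differed between the groups. Per kb of canonical transcript, TPM1 made up 11.2% ± 0.529 (SD, n = 2) of the 4 tropomyosins with SB, 15.9% ± 0.306 after 3 days and 25.0% ± 0.629 after 7 days. TPM3 made up 24.2% ± 0.757, 18.1% ± 0.0844 and 13.7% ± 0.237 in the same order. TPM4 had the highest share on this scale in every group, with 60.5% ± 1.14, 62.2% ± 0.210 and 57.9% ± 0.0561, and TPM2 was 4.12%, 3.76% and 3.38%.

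Neither TPM1 nor TPM3 overlapped between any 2 groups in these shares. With SB and at 3 days TPM3 was above TPM1 in each library, and at 7 days TPM1 was above TPM3. The order of the 2 genes at 7 days depends on the length used: with the merged exons of all transcripts, TPM1 was 9.72% and TPM3 30.1% at 7 days, whereas the rise of the TPM1 share from SB (3.59%) to 3 days (5.57%) to 7 days was present on that scale also. The place of TPM4 depends on it as well. Without division by length TPM3 had the highest share with SB, 50.4% against 44.1% for TPM4, and TPM4 the highest after 3 days (50.3%) and 7 days (52.1%). On that scale, and with merged exons (46.8%, 52.6% and 54.3%), the share of TPM4 at 7 days was above that with SB, not below it. TPM3 lost share to 7 days on each of the 3 scales, to 35.3% without division by length and from 43.7% to 30.1% with merged exons.

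**Figure D3:**
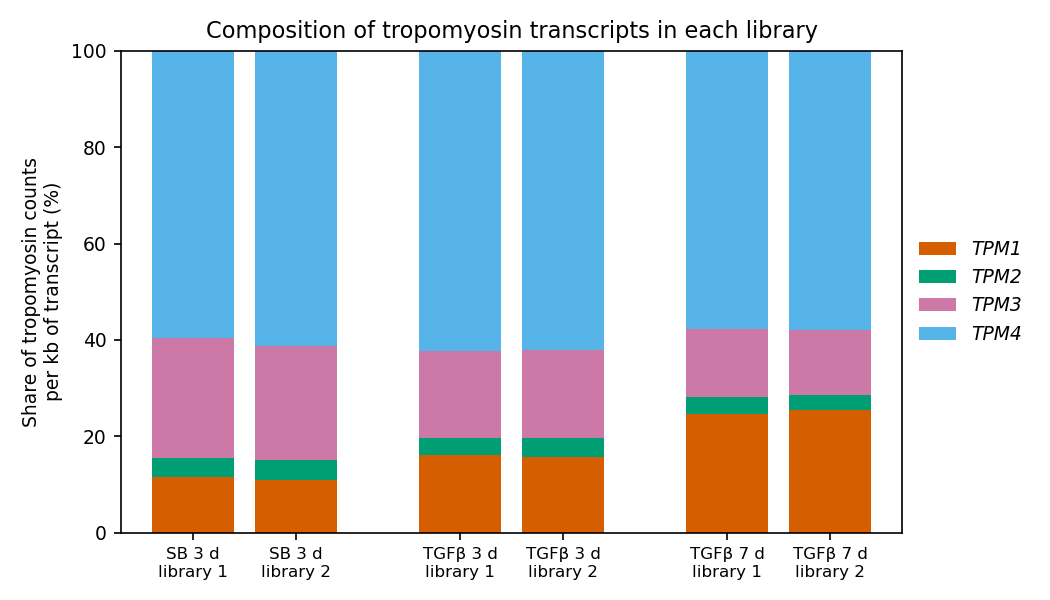
Share of each tropomyosin gene in the 4 tropomyosins, in percent of normalized counts per kb of canonical transcript. Each stacked bar is 1 library, in the order SB, TGFβ 3 days and TGFβ 7 days, and bars sum to 100%. The TPM1 segment grows from 11.2% with SB to 25.0% at 7 days, the TPM3 segment shrinks from 24.2% to 13.7%, and TPM4 is the main segment in every library on this scale, though not with SB when counts are not divided by length (44.1%, with TPM3 at 50.4%).

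The close relatives of the genes gave a mixed picture. Of the other calponin and transgelin genes, all 4 were tested, and 3 were higher and 1 lower at 3 days, beside 14.9% and 14% of all genes. TAGLN2, the transgelin of nonmuscle cells, was at 32733 and 27946 with SB, 44509 and 47424 after 3 days and 53593 and 49945 after 7 days, and it rose by 0.60 (adjusted p = 0.000419) and 0.77 (adjusted p = 2.68e-05) on the log2 scale against SB. TAGLN3, at 77 to 107 with SB, rose at 3 days by 1.12 (adjusted p = 0.0013) and at 7 days by 0.52 (adjusted p = 0.0441), a call that was lost in 5 of the 6 fits without 1 library, and it fell by 0.60 from 3 to 7 days (adjusted p = 0.0384), a call lost in 4 of them.

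CNN2, a calponin of nonmuscle cells, was at 4785 and 5089 with SB and 5741 and 6962 after 3 days, and rose by 0.36 (adjusted p = 0.0252), a call lost in 2 of the 6 fits without 1 library (adjusted p up to 0.223). CNN3, the acidic calponin, went down from 5789 and 6232 with SB to 4342 and 3987 after 3 days and 4336 and 4540 after 7 days. It fell by 0.53 (adjusted p = 0.000691) and 0.44 (adjusted p = 0.00115) on the log2 scale, without overlap with SB. At 7 days against SB 2 of the 4 relatives were higher and 1 lower, beside 27.7% and 26.9% of all genes, and from 3 to 7 days 0 were higher (limma, 0 also at an unadjusted p below 0.05) and 1 lower, beside 17% and 16.2%.

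Among the other actins and near copies, ACTA1, ACTC1, POTEE and POTEF were at 0 to 8 in every library and were not tested. ACTBL2, a β-actin-like gene, was at 9 and 13 with SB, 37 and 21 after 3 days and 70 and 84 after 7 days, without overlap of the groups. It rose by 1.29 at 3 days (adjusted p = 0.015), by 2.71 at 7 days (adjusted p = 4.39e-05) and by 1.43 from 3 to 7 days (adjusted p = 0.00865) on the log2 scale. The first and the last of these calls were lost in 2 of the 6 fits without 1 library (adjusted p up to 0.168 and 0.0793).

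Of the 8 proteins listed as partners of tropomyosin on the filament, 7 were tested, and 1, 2 and 3 were higher at 3 days, at 7 days and from 3 to 7 days, with 0 lower (limma, 0 also at an unadjusted p below 0.05). Of all genes 14.9%, 27.7% and 17% were higher and 14%, 26.9% and 16.2% lower in the same order. The first 2 counts of higher genes were near the background. CALD1, caldesmon, which binds actin and tropomyosin and slows myosin, was at 1162 and 1198 with SB, 2252 and 2154 after 3 days and 3426 and 3653 after 7 days. It rose by 0.90 (adjusted p = 1.54e-05), by 1.58 (adjusted p = 5.73e-08) and, from 3 to 7 days, by 0.68 (adjusted p = 0.000272), in the same stepwise order as TPM1.

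Tropomodulins cap the pointed end of filaments that carry tropomyosin. TMOD2 was at 637 and 683 with SB, 684 and 692 after 3 days and 988 and 1120 after 7 days, and rose by 0.67 at 7 days against SB (adjusted p = 0.000367) and by 0.61 against 3 days (adjusted p = 0.0021). TMOD1 was at 7 to 29 in all libraries and rose by 1.32 from 3 to 7 days (adjusted p = 0.0338), a call lost in 3 of the 6 fits without 1 library. TMOD3, the most abundant, was at 8982 to 10478 and did not pass in any comparison, nor did TMOD4, LMOD1 and LMOD3, which were at 11 to 31. LMOD2 was listed at 0 in every library.

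Of SRF and its cofactors, 7 of the 8 listed genes were in the table and 6 were tested, since ABRA was at 0 or 1. MYOCD was not analysed here. MKL1, which encodes MRTFA, was at 582 and 638 with SB, 1186 and 1282 after 3 days and 1025 and 870 after 7 days, so all TGFβ libraries were above SB. It rose by 1.02 at 3 days (adjusted p = 5.24e-05) and by 0.63 at 7 days (adjusted p = 0.000793) and fell by 0.38 from 3 to 7 days (adjusted p = 0.0271), the last call being lost in 3 of the 6 fits without 1 library.

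ELK3, an ETS factor that binds DNA together with SRF, was at 4494 to 5320 with SB and at 8544 to 9242 with TGFβ, and rose by 0.91 (adjusted p = 1.5e-05) and 0.82 (adjusted p = 1.7e-05). SRF itself was at 1698 and 1588 with SB, 1311 and 1491 after 3 days and 1253 and 1118 after 7 days, and fell by 0.47 at 7 days against SB (adjusted p = 0.00295). MKL2, which encodes MRTFB, rose by 0.39 from 3 to 7 days (adjusted p = 0.0169) and ELK4 by 0.26 at 7 days against SB (adjusted p = 0.0403), calls that were lost in 4 and 3 of the 6 fits without 1 library. ELK1 was at 1234 to 1419 and did not pass in any comparison.

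A further 15 cytoskeletal genes that are known targets of SRF and MRTF were all tested. At 3 days 9 of the 15 were higher and 1 lower, beside 14.9% and 14% of all genes. At 7 days 10 were higher and 1 lower, beside 27.7% and 26.9% of all genes. The medians at these times were 0.58 and 0.52 on the log2 scale. From 3 to 7 days 2 were higher and 2 lower, with a median of -0.13, near the 17% and 16.2% of all genes. The higher genes included ITGA5, the integrin α5 subunit, at 4799 and 4547 with SB, 27317 and 30528 after 3 days and 39579 and 35111 after 7 days (2.63, adjusted p = 2.55e-09, and 3.00, adjusted p = 2.82e-10, against SB).

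PDLIM7, a scaffold protein that binds tropomyosin, rose from 1848 and 1395 to 4974 and 6723 and to 6966 and 5421 (1.85, adjusted p = 5.96e-06, and 1.94, adjusted p = 1.77e-06). FHL1, a LIM protein of muscle, was at 980 to 1136 with SB and after 3 days of TGFβ, reached 2388 and 2357 after 7 days, and rose by 1.27 against SB (adjusted p = 5.03e-07) and by 1.08 against 3 days (adjusted p = 2.01e-05). The 1 gene lower at both times was MYLK, the myosin light chain kinase, named here after its values were seen. It was at 6337 and 5661 with SB, 3941 and 4209 after 3 days and 4082 and 4173 after 7 days, and fell by 0.56 (adjusted p = 0.000551) and 0.54 (adjusted p = 0.000306).

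The machinery that folds newly made actin, the chaperonin CCT, was lower at 7 days, and it is singled out here after its values were seen. Each of its 8 subunits, TCP1, CCT2, CCT3, CCT4, CCT5, CCT6A, CCT7 and CCT8, was lower at 7 days in both comparisons, with log2 fold changes from -0.78 to -0.48 against SB (adjusted p up to 0.000631) and from -0.61 to -0.40 against 3 days (adjusted p up to 0.00524). Of all genes tested, 26.9% were lower at 7 days against SB and 16.2% against 3 days. At 3 days 0 of the 8 passed with limma, and 2 were lower at an unadjusted p below 0.05, with log2 fold changes from -0.22 to -0.03 and adjusted p-values of at least 0.0964. Of all genes tested, 14% were lower at 3 days. Of the 3 other genes of the list, SETD3, the histidine methyltransferase of actin, was called higher and C19orf54, a protease that trims actin, lower at 3 days, both named after their values were seen, and NAT6, which acetylates actin, did not pass.

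**Figure D4:**
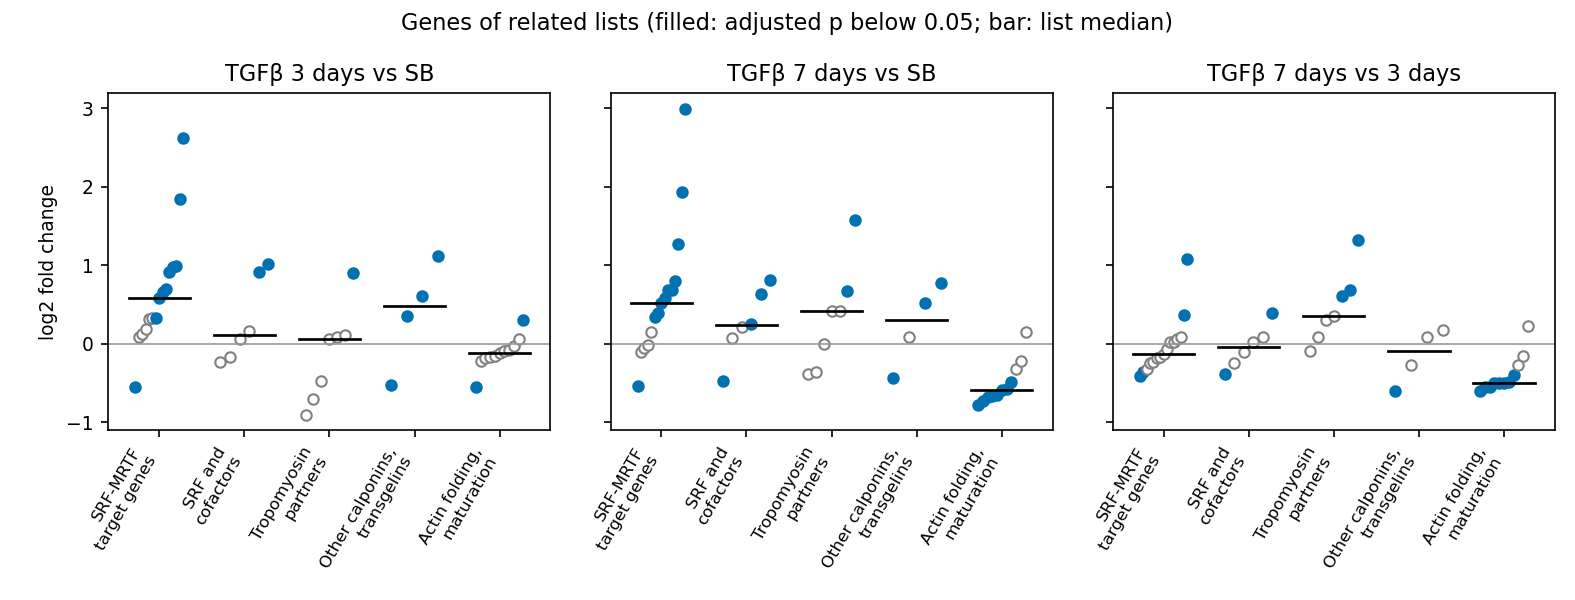
Log2 fold changes of the tested genes of 5 related lists in the 3 comparisons. Each point is 1 gene, filled where the adjusted p is below 0.05, and the bar is the median of the list. The SRF-MRTF targets lie mostly above 0 in both comparisons with SB and around 0 from 3 to 7 days, and the 8 chaperonin subunits lie below -0.39 in both comparisons of 7 days.

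Markers of other cell types were given beside these genes because ACTA2, TAGLN and CNN1 are abundant in smooth muscle cells and fibroblasts. Of the 4 smooth muscle markers 3 were in the table, and they summed to 51 and 58 with SB, 56 and 59 after 3 days and 92 and 82 after 7 days. DES, desmin, passed the minimum mean through the TGFβ groups, at 1 and 5 with SB, 19 and 19 after 3 days and 30 and 21 after 7 days, and its log2 fold change was 2.53 (adjusted p = 0.0032) and 2.91 (adjusted p = 0.000537). MYH11, the myosin heavy chain of smooth muscle, was at 22 to 45 and did not pass, and LMOD1 was at 14 to 31. The 6 fibroblast markers summed to 233 and 275, 350 and 429, and 950 and 735 in the same order. PDGFRB, at 21 and 17 with SB, 66 and 75 after 3 days and 354 and 270 after 7 days, rose by 3.96 at 7 days (adjusted p = 6.7e-08), in the same order as CNN1. COL1A1, at 196 and 250, 267 and 337, and 581 and 457, rose by 1.22 at 7 days against SB (adjusted p = 0.000144). PDGFRA, at 8 to 16, did not pass in any comparison, and the fibroblast markers DCN, LUM and THY1 were at 0 to 2 in all libraries. The part of the cells these markers stand for in the values of CNN1 was not tested.

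The genes whose profiles were most like those of the smooth muscle genes were found by the root mean square distance between profiles on the log2 scale, each centred on its mean over the 6 libraries, among 11383 genes with a mean of at least 100. For ACTA2 they were ING3 (distance 0.0558), C12orf29 (0.0725) and CENPK (0.0750), and for TAGLN they were PKD1 (0.0437), AGRN (0.0590) and PGLS (0.0668). For CNN1 they were GNG2 (0.195), FIBCD1 (0.197) and FZD1 (0.221). GNG2, at 201 and 175 with SB, 489 and 447 after 3 days and 1306 and 1289 after 7 days, had the stepwise order of CNN1 at a far higher level. ACTA2, at 33 to 56 counts, and TAGLN, at 63 to 119, did not pass in any comparison. PKD1 shared the differences of TAGLN between libraries of a group, at 480 and 721 after 3 days and 952 and 701 after 7 days. A small distance over 6 libraries is thus no sign of shared regulation, which was not tested.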

How the data were processed

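RNA-seq was performed on polyadenylated RNA of H2087-LCC cells, 6 libraries in 3 groups by the labels. The authors checked read pairs of 50 bases with FastQC (v.0.11.5), mapped them to hg19 with STAR, counted uniquely mapped pairs on genes with HTSeq (v.0.6.1p1) and normalized counts by library size. DESeq2 (3.4) is also named in the submitters' notes. The deposited normalized counts are whole numbers for 21293 genes, recorded here under the unit score, since the authors scaled and rounded them and they are not raw counts. Totals were 34306283 to 36340734 per library.

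Values were transformed as log2(value + 1), and limma 3.58.1 was run on the 14395 genes whose mean reached 10 in R 4.3.3 (trend, group as the only term, all 6 libraries). The negative binomial test of the study needs raw counts and was not used. P-values are 2-sided and adjusted by Benjamini-Hochberg over all genes tested, with a threshold of 0.05. Simulated data used the mean of each gene over all 6 libraries, the same dispersion for every gene and changes of at least 2-fold. In the first comparison of these data, the steps called 194 of 198 changed genes and 18 unchanged ones among 14377. Smaller changes were not simulated, so these rates do not apply to them. The simulated libraries were independent, whereas deviations of the 3-day and 7-day libraries were correlated in the data (-0.647). In the data 2149 genes were called higher and 2021 lower at 3 days, far more than were changed in the simulation. The rates therefore need not hold for these data. The members and the lists were chosen with earlier results of these data known, so they are descriptions and got no set test. Named were all 10 members, every gene of a list of 8 or fewer, up to 5 changed genes of longer lists with an absolute log2 fold change of at least 1, and the 3 nearest profiles of ACTA2, TAGLN and CNN1. Gene positions and lengths came from GENCODE on GRCh37 and start sites from RefSeq. The alternatives were pseudocounts of 0.5 and 5, no minimum and a mean of at least 50, 3 other scalings, limma without the trend, only the 4 libraries compared, each library omitted once, a replicate block and other lengths for the shares. The merged exons as length were chosen after seeing the data. Python 3.11.15 and matplotlib 3.10.9 made the figures.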

Additional observations from a re-analysis of the deposited data

Results flagged for a closer look

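The effect of TGFβ against SB differed between 7 and 3 days in 4 of the 8 tested genes, as tested by the comparison of 7 with 3 days in limma. In that comparison 17% of all genes tested were called higher and 16.2% lower. TPM1 had a larger effect at 7 days, by 0.58 on the log2 scale (adjusted p = 0.00272; 1.14 at 3 days and 1.72 at 7 days). ACTB differed by -0.41 (adjusted p = 0.0165; 0.38 and -0.03), ACTG1 by -0.31 (adjusted p = 0.0207; 0.05 and -0.26) and TPM3 by -0.48 (adjusted p = 0.00398; 0.22 and -0.26). Both effects share the SB libraries, and no SB library was taken at 7 days. In limma without the trend, the differences of ACTB, ACTG1 and TPM3 were not called (adjusted p = 0.0964, 0.0970 and 0.0524).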

How the results depend on the processing

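The rises of TPM1 (3 comparisons) and TPM4 (against SB) were called under every alternative, and each of the other 7 calls on the tested members was lost under at least 1. Of the members, the number called higher at 3 days against SB was 2 in place of 4 with no filter on low values and without the trend, and 2 to 5 without 1 library. The number called lower at 7 days against SB was 2, but 0 with no filter and without the trend, 1 with upper quartile scaling and with only the 4 libraries compared, and 0 to 2 without 1 library. From 3 to 7 days, the number higher was 2 in place of 1 with no filter and with only the 4 libraries compared (1 to 2 without 1 library), and the number lower was 1 in place of 3 with no filter, 0 without the trend and 4 with only the 4 libraries compared (1 to 4 without 1 library). The added higher gene with no filter and with only the 4 libraries compared was CNN1, whose mean over 6 libraries was below the minimum. With only the 4 libraries compared, CNN1 reached the minimum through its 7-day counts of 20 and 17. The added lower gene in that fit was TPM4 (adjusted p = 0.0431, limma). The median at 7 days against SB, 0.12, was 0.27 with a mean of at least 50 and with only the 4 libraries compared and 0.07 with equal totals. Over all genes, the number called lower at 3 days was 1249 with no filter, against 2021, and from 3 to 7 days 1545 were higher and 1497 lower with no filter and 1410 lower without the trend, against 2449 and 2326. Without the second 7-day library 1191 were higher and 1103 lower from 3 to 7 days, and without the first 3-day library 1441 were higher and 1167 lower at 3 days, the lowest of the omissions. The log2 fold changes that changed sign were near 0 or uncalled: ACTA2 at 3 days, 0.01, was -0.0483 when totals were made equal and -0.18 to 0.19 without 1 library; ACTG1 at 3 days, 0.05, was -0.00837 with equal totals and -0.0453 to 0.14 without 1 library; ACTB at 7 days was -0.19 to 0.13 and TAGLN at 3 days -0.39 to 0.16 without 1 library. The share of TPM1 per kb, 11.2%, 15.9% and 25.0% with SB, at 3 days and at 7 days, was 4.03%, 6.32% and 11.1% without division by length and 3.59%, 5.57% and 9.72% with merged exons. Replicate numbers gave no consistent pairing of the libraries over 11389 genes. The correlation of deviations was 0.209 between SB and 3 days, -0.130 between SB and 7 days and -0.647 between 3 and 7 days. By the last value, the first 3-day and the second 7-day library deviated alike from their group means, which the fits do not model. A replicate block gave the same counts of members, 4 higher at 3 days. The depth limits ACTA2, TAGLN, CNN1 and ACTG2, at 0 to 119 counts.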
